A study of Mus musculus with 7 samples.

Results

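Kinesins are motor proteins that walk along microtubules, or take them apart, using ATP. In a neuron, members of the Kif1, Kif3, Kif5 and Kif21 families carry vesicles, mitochondria and cytoskeletal parts out along the axon or act on its microtubules, whereas in a dividing cell another set builds the spindle, moves chromosomes and completes cytokinesis. Several members of the first set also work outside neurons, for example Kif3a and Kif3b in building cilia. The genes described here are the rows of the count table annotated as protein coding whose name begins with Kif and a digit, 39 of 54532 genes. By name, 12 of them belong to the Kif1, Kif3, Kif5 and Kif21 families (called axonal transport kinesins below), 12 are kinesins known from mitosis, and the other 15 serve cilia, endosomes or other tasks. Kif2a, which is active in neurons and in spindles, was counted among these 15 and not as mitotic. The pattern also takes in Kif1bp, which encodes a kinesin-binding protein and no motor. It was kept among the axonal 12. The filter on low counts was passed by 37 of the 39: Kif2b, a spindle kinesin, was listed at 0 in every library, and Kif12 had between 0 and 8 counts.

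RNA was sequenced from the epithelium of the cochlea, the organ of hearing, of untreated mouse embryos at embryonic day 16. Of 7 libraries, 4 came from embryos with the genotype Brg1 knockout and 3 from embryos labelled Control; strain, Cre driver, deleted exons, sex and embryos per library were not given in the sources used here. Brg1, encoded by Smarca4, is an ATPase of the BAF chromatin remodelling complex. By its title the study concerns the part of Brg1 in how this epithelium differentiates. The labels do not state that replicates were different animals, so each p-value reflects the spread among the sequenced libraries, and that spread may be technical.

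Library totals lay between 16098269 and 18872132 estimated counts, and 3 counts, the floor used here for counting error, equalled 0.159 to 0.186 CPM (counts scaled to library size). Smarca4 was at 228 to 281 CPM in the knockout libraries and 356 to 376 CPM in the controls (log2 fold change -0.56 ± 0.09 SE; edgeR adjusted p = 0.00338). All 15 markers of cochlear epithelium were found above 0 in every library. The fractions in the deposited values split the libraries into sets of 5 and 2, called batches below although no label names a batch. Knockout replicate 4 and control replicate 3 form the smaller one. With a single library per group it cannot be tested, so results were recomputed in the larger batch alone. Counts from it stand beside the pooled ones, and single kinesins are given where a call was lost. For the other lists, the genes that lost a call there are not all named.

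Of the 37 kinesins tested, 7 were lower in knockout and 0 higher (edgeR quasi-likelihood test, Benjamini-Hochberg adjusted p below 0.05 over 17341 genes). Among all tested genes 6.82% were called, 4.87% lower and 1.94% higher. The 7 were Kif5a, Kif21b, Kif5c, Kif3c, Kif1a, Kif21a and Kif1b, all of the axonal families, and they fell to between 38.1% and 69.3% of the control mean. Of the 12 axonal members, 7 were lower and 0 higher, and their median log2 fold change was -0.54. Of the 11 mitotic members tested, 0 were called by edgeR and 0 by DESeq2, and the median was 0.13. At an unadjusted p below 0.05 there were 3 higher and 0 lower, against 9.39% and 11.8% of all genes. The medians differed by -0.67 on the log2 scale, axonal minus mitotic, and the median of all tested genes was 0.02. In the larger batch alone 5 axonal members were called lower, where 3.74% of all genes were called, 2.49% lower and 1.25% higher; the 5 lay between -1.35 and -0.59 on the log2 scale there. The 11 mitotic members lay between -0.09 and 0.39 in that batch, with 0 called. With DESeq2, 7 axonal members were lower, where 9.65% of all genes were called, 6.67% lower and 2.98% higher.

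**Figure D1:**
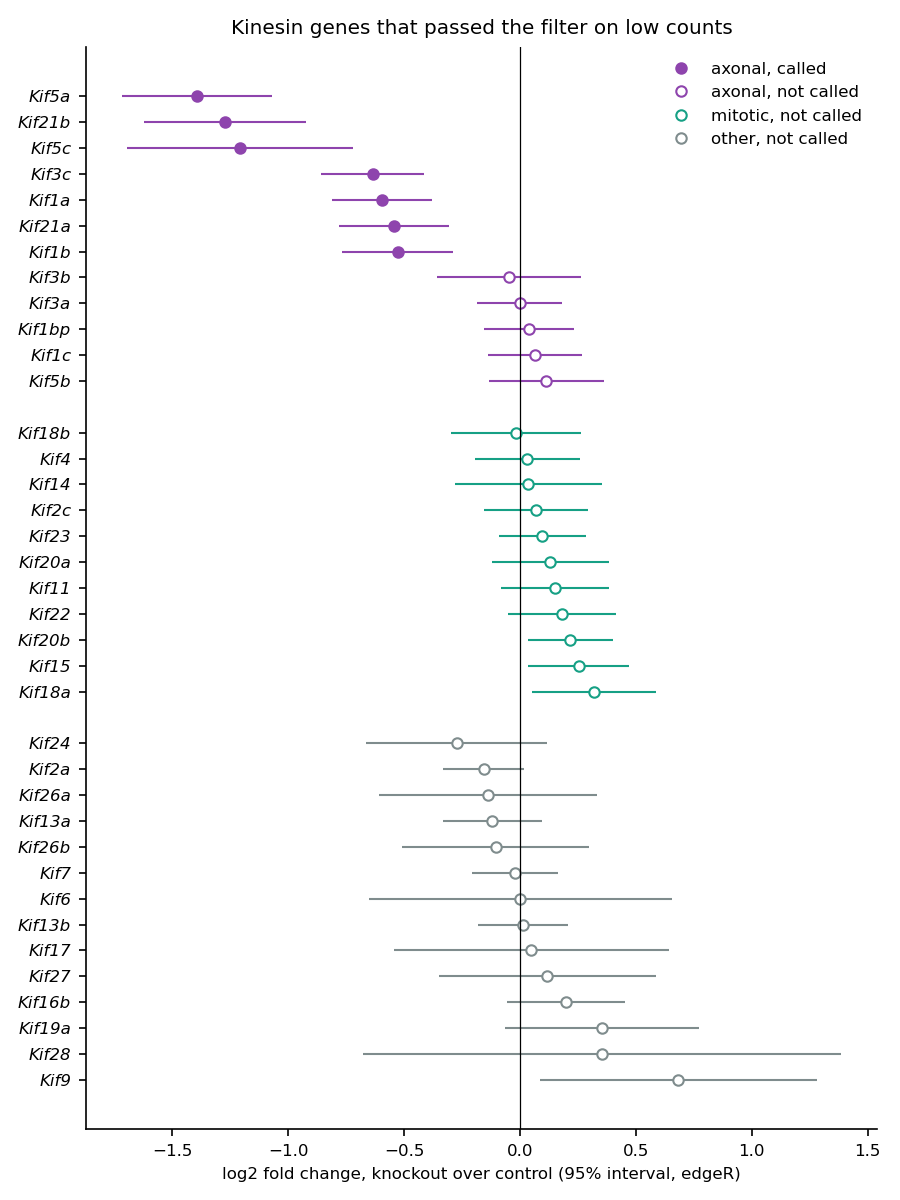
Log2 fold change of knockout over control (horizontal axis) for the 37 kinesin genes that passed the filter on low counts, with 95% intervals from edgeR; filled points passed the adjusted threshold. The 7 filled points are axonal family members between -1.39 and -0.53, and the 11 mitotic members lie between -0.02 and 0.32.

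Promoters are shown because a short sequence was common in the promoter windows of the mitotic members. Promoter windows of 300 bases, from 250 bases before to 50 after an annotated start, were taken from RefSeq on GRCm38.p6. At least 1 window was available for 32 of the 39 members (not Kif5a, Kif5b, Kif21b, Kif20a, Kif19a, Kif13b and Kif28). Some windows lay inside the gene as bounded in the count table, among them those of Kif2c (117178723 to 117179022), Kif14 (136467598 to 136467897) and Kif4 (100625815 to 100626114). There Kif2c begins at 117182639 on the reverse strand. Kif14 begins at 136466343 and Kif4 at 100625737, both on the forward strand. The cell cycle homology region, or CHR, is a promoter element of genes expressed in late cell cycle, with the letters TTTGAA. Searched on both strands, these letters were present in 9 of 11 windows of mitotic members, in 1 of 11 windows of axonal members (9 genes) and in 17.9% of all 32851 windows. The exception among axonal members was the downstream window of Kif1a; the windows of Kif18a and Kif2b were the mitotic ones without a match. The same letters were in 14 of 19 windows of other mitotic spindle genes and in 2 of 21 windows of neuron markers. For each of the 9 mitotic genes the match nearest the annotated start is printed, with 17 bases on either side. Sequences run 5′ to 3′ on the gene's strand, and the capitals mark TTTGAA or its reverse complement.
Kif11 (chr19:37376346-37376385, + strand): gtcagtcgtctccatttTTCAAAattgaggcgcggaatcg
Kif15 (chr9:122951045-122951084, + strand): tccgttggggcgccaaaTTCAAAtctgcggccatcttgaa
Kif22 (chr7:127042415-127042454, - strand): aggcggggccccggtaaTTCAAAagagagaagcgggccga
Kif23 (chr9:61946775-61946814, - strand): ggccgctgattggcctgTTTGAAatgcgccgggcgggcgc
Kif18b (chr11:102925099-102925138, - strand): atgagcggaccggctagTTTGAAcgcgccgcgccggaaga
Kif20b (chr19:34922348-34922387, + strand): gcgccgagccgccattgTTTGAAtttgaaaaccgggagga
Kif4 (chrX:100626067-100626106, + strand): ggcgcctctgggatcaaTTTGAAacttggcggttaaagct
Kif2c (chr4:117178853-117178892, - strand): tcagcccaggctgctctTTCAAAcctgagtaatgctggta
Kif14 (chr1:136467603-136467642, + strand): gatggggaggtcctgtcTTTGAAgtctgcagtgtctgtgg

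In the first 7 of these the match began within 50 bases of the annotated start. Kif20b carries a further copy directly after the one in capitals. The CCAAT box, another element of such promoters, had its letters CCAAT on either strand in 7 of 11 mitotic windows, in 5 of 11 axonal windows and in 37.4% of all windows. The GC box letters GGGCGG were in 6 of 11 mitotic, 7 of 11 axonal and 35.7% of all windows. A match describes letters only, and no binding was measured.

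Among the axonal members that fell, the windows of Kif5c and Kif21a are printed in full to show a start region without TTTGAA. Capitals mark, on either strand, GGGCGG, the TATA box letters TATAAA and the cAMP response element letters TGACGTCA.
Kif5c (chr2:49619036-49619335, + strand): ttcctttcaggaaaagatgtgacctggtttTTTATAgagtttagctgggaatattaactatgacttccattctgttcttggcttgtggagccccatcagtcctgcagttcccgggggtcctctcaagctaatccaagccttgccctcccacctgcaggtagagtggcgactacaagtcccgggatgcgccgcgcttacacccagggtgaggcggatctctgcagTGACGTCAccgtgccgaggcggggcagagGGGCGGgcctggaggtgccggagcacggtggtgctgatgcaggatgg
Kif21a (chr15:91049902-91050201, - strand): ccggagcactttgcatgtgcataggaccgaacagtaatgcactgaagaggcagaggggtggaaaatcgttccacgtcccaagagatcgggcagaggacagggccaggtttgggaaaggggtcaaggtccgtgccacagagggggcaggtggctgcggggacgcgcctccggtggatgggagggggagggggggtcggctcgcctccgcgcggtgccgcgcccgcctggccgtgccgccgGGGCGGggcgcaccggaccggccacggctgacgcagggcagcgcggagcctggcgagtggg

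The Kif5c window holds 1 match of each of the 3 patterns and the Kif21a window 1 GC box. TGACGTCA was in 1 of 11 axonal and 1 of 11 mitotic windows, against 1.79% of all windows, and TATAAA in 2 and 1 against 13.6%.

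Kinesin-1, the conventional kinesin, is built from heavy chains encoded by Kif5a, Kif5b and Kif5c and from light chains that bind cargo. Kif5a and Kif5c are enriched in neurons, and Kif5b is made in most cells. Kif5a (ENSMUSG00000074657, chromosome 10, 127225696 to 127263348, mm10, reverse strand), known for the transport of neurofilaments, was at 141, 118 and 122 CPM in control replicates 1 to 3 and at 52.8, 39.8, 60.7 and 40.04 CPM in knockout replicates 1 to 4. All knockout libraries lay below all controls. The mean fell from 127 ± 12.7 (SD, n = 3) to 48.3 ± 10.2 CPM (SD, n = 4), which is -1.39 ± 0.15 on the log2 scale (SE; edgeR adjusted p = 0.000929), with a 95% interval from -1.72 to -1.07. Kif5c (ENSMUSG00000026764, chromosome 2, 49619298 to 49774778, forward strand) was at 183, 135 and 133 CPM in the controls and at 79.7, 42.4, 72.7 and 65.2 CPM in the knockouts. The groups did not overlap, and knockout replicate 2 was the lowest. On the log2 scale the difference was -1.21 ± 0.21 (SE; edgeR adjusted p = 0.0139), with a 95% interval from -1.70 to -0.72; in the larger batch alone it was -1.29 with an adjusted p of 0.115, and without knockout replicate 4 the adjusted p was 0.0683.

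Kif5b, the broadly expressed heavy chain, was not called. It was at 162.5, 123 and 139.6 CPM in the controls and at 174, 161, 145 and 134 CPM in the knockouts, so the groups overlapped. Its 95% interval ran from -0.13 to 0.36 around a log2 fold change of 0.11 ± 0.11 (SE; edgeR adjusted p = 0.620). Per length, in the deposited FPKM (a level scaled to gene length and library size), the 3 heavy chain genes were at similar levels in the controls, at 20.5 ± 4.18 for Kif5c, 18.7 ± 2.83 for Kif5b and 17.7 ± 2.01 for Kif5a (SD, n = 3), within their spread of each other. In the knockouts Kif5b was at 20.2 ± 2.60, above Kif5c at 8.83 ± 2.22 and Kif5a at 6.72 ± 1.46 (SD, n = 4). Kif5a and Kif5c together made up 67.6%, 68.2% and 65.6% of the heavy chain FPKM in control replicates 1 to 3. In knockout replicates 1 to 4 they made up 44.3%, 34.8%, 49.1% and 45.1%. Each knockout library thus had a lower share of Kif5a and Kif5c than each control.

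**Figure D2:**
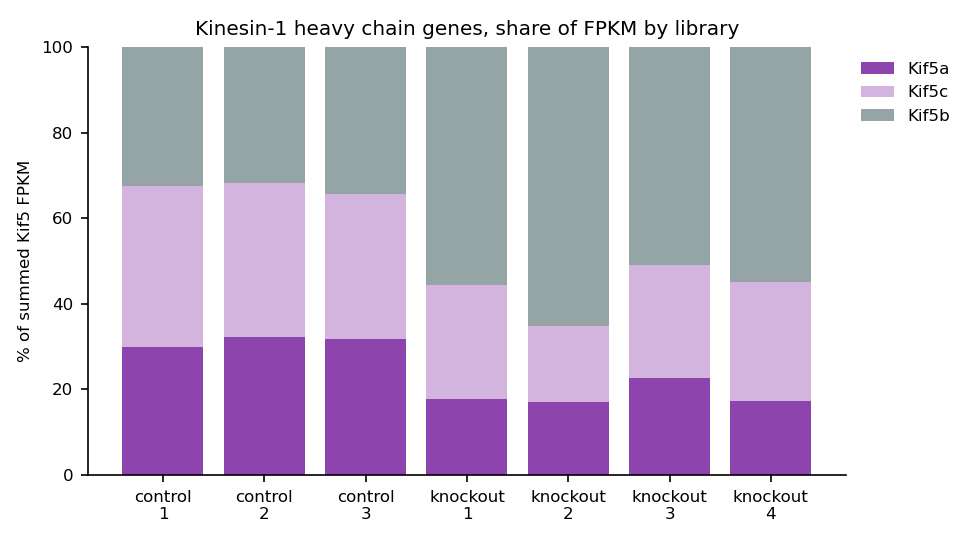
Share of the summed FPKM of Kif5a, Kif5c and Kif5b (vertical axis, percent) taken by each gene in each library, stacked to 100%. Kif5b takes 31.8% to 34.4% in the 3 control libraries and 50.9% to 65.2% in the 4 knockout libraries.

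Kif1 family motors are fast carriers of single or paired heads. Kif1a carries synaptic vesicle precursors, Kif1b has forms for mitochondria and for vesicle precursors, and Kif1c is broadly expressed and moves dense-core vesicles. Kif1a (ENSMUSG00000014602, chromosome 1, 93015464 to 93101951, reverse strand) was at 146, 133 and 127 CPM in the controls and at 97.2, 80.7, 100.2 and 79.7 CPM in the knockouts. Every knockout library was lower than every control, and the log2 fold change was -0.60 ± 0.10 (SE; edgeR adjusted p = 0.00426). Kif1b (ENSMUSG00000063077, chromosome 4, 149176319 to 149307693, reverse strand) was at 240.1, 198 and 198 CPM in the controls and at 169, 129.9, 155 and 134 CPM in the knockouts. Here too the groups did not overlap, with a log2 fold change of -0.53 ± 0.11 (SE; edgeR adjusted p = 0.0139). The call did not hold in the larger batch alone (-0.53, adjusted p = 0.0581) or without control replicate 1 (adjusted p = 0.0718). Kif1c was at 164, 163 and 184 CPM in the controls and at 199, 183, 173 and 157 CPM in the knockouts, with overlapping groups and 0.07 ± 0.09 on the log2 scale (SE; edgeR adjusted p = 0.750; 95% interval -0.14 to 0.27). Kif1bp, whose product binds kinesins, also overlapped between groups. Its controls were at 56.1, 49.4 and 52.4 CPM and its knockouts at 58.1, 52.3, 49.0 and 57.0 CPM (log2 fold change 0.04 ± 0.09 SE; edgeR adjusted p = 0.849).

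The Kif3 motors work as a heterodimer of Kif3a with Kif3b or Kif3c, joined by the accessory protein Kifap3. The pair of Kif3a and Kif3b also assembles cilia, and Kif3c is enriched in neurons. Kif3c (ENSMUSG00000020668, chromosome 12, 3365132 to 3406494, forward strand) was at 64.8, 64.0 and 54.8 CPM in the controls and at 44.5, 37.4, 40.7 and 35.1 CPM in the knockouts. The highest knockout library lay below the lowest control, and the log2 fold change was -0.64 ± 0.10 (SE; edgeR adjusted p = 0.00357). An antisense gene, 1110002L01Rik, overlaps Kif3c on the other strand; it had a mean of 95.7 counts against 880.2 for Kif3c and a log2 fold change of -0.01 ± 0.25 (SE), and whether reads were counted by strand is not given in the sources used here. Kif3a was at 90.8, 82.3 and 76.1 CPM in the controls and at 85.1, 80.0, 79.0 and 87.9 CPM in the knockouts. The knockout values lay within the range of the controls (log2 fold change 0.00 ± 0.08 SE; 95% interval -0.18 to 0.18). For Kif3b the controls were at 41.7, 27.8 and 37.5 CPM and the knockouts at 38.2, 32.4, 37.7 and 29.8 CPM, again within the control range (-0.05 ± 0.14 SE; 95% interval -0.36 to 0.26).

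Kif21a and Kif21b are kinesin-4 motors that restrain microtubule growth and are strongly expressed in neurons. Kif21b (ENSMUSG00000041642, chromosome 1, 136131389 to 136177998, forward strand) was at 114.5, 85.7 and 86.7 CPM in the controls and at 43.3, 30.1, 47.7 and 37.3 CPM in the knockouts. This was a fall to 41.4% of the control mean, with no overlap (log2 fold change -1.27 ± 0.16 SE; 95% interval -1.62 to -0.92; edgeR adjusted p = 0.00157). Kif21a (ENSMUSG00000022629, chromosome 15, 90933276 to 91049948, reverse strand) was at 75.9, 64.2 and 58.1 CPM in the controls and at 49.97, 40.4, 47.5 and 43.6 CPM in the knockouts. The groups did not overlap, and the log2 fold change was -0.54 ± 0.11 (SE; edgeR adjusted p = 0.0116; without control replicate 1, adjusted p = 0.0546). In all, 7 of the 12 axonal members had groups that did not overlap, all lower in knockout, where 11.5% of all tested genes did so.

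**Figure D3:**
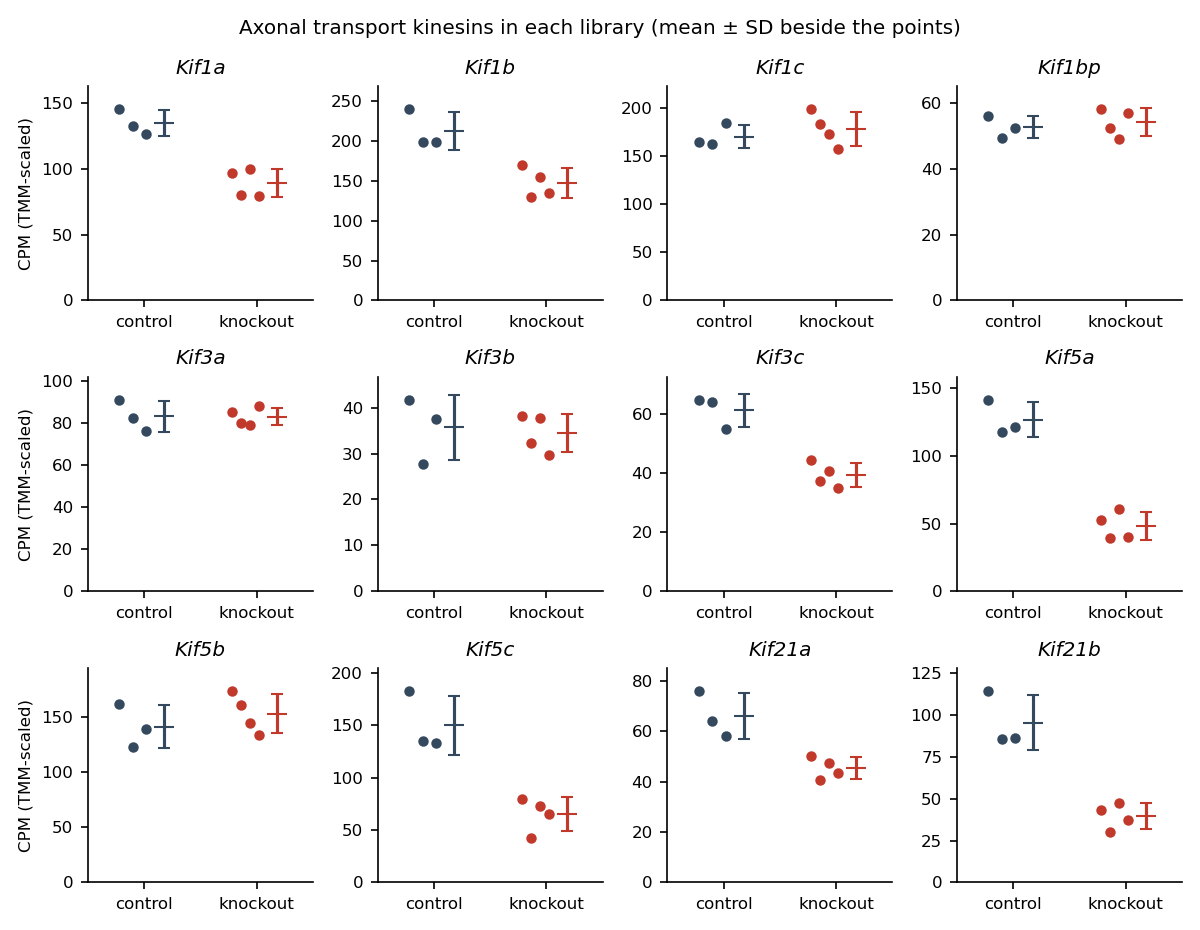
CPM (vertical axis, TMM-scaled, from 0) of the 12 axonal family members in the 3 control and 4 knockout libraries, 1 point per library, with the mean and SD beside the points. The knockout points lie below every control point for Kif1a, Kif1b, Kif3c, Kif5a, Kif5c, Kif21a and Kif21b and overlap the controls for Kif1c, Kif1bp, Kif3a, Kif3b and Kif5b.

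The per-length order of the axonal members in the controls ran from Kif1c (22.8 ± 1.32 FPKM) and Kif3a (22.6 ± 2.36) through the Kif5 genes, Kif1a (14.1 ± 1.23), Kif1b (11.8 ± 1.51), Kif1bp (10.5 ± 0.780) and Kif21a (9.97 ± 1.52) to Kif3c (8.07 ± 0.834), Kif21b (7.67 ± 1.42) and Kif3b (6.18 ± 1.27; SD, n = 3 for each). Neighbours in that order had overlapping ranges of mean ± SD, except that Kif5a stood above Kif1a. In the knockouts Kif1c (23.8 ± 2.68), Kif3a (22.5 ± 0.993) and Kif5b led, and Kif21b was lowest at 3.15 ± 0.617 FPKM (SD, n = 4). The 12 genes together summed to 192, 159.6 and 161 FPKM in the controls and to 147, 124, 133 and 120.3 FPKM in the knockouts. Among the FPKM of all 39 kinesins they took 53.5% to 58.0% in the controls and 45.1% to 50.2% in the knockouts.

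To compare family members within a library, where scaling cancels, 6 log2 ratios between related members were tested. The test was an exact two-sided permutation of the group labels (35 assignments). The first member of each ratio was chosen as neuron-enriched and the second as more broadly expressed. Of the second members, Kif1b and Kif21a were themselves called lower, and Kif21a is also strongly expressed in neurons. The ratio of Kif5a to Kif5b was -0.20, -0.06 and -0.20 in the controls and -1.72, -2.02, -1.25 and -1.74 in the knockouts. That is a difference of -1.53 in the mean log2 ratio. Kif5c to Kif5b differed by -1.35, Kif21b to Kif21a by -0.74, Kif1a to Kif1c by -0.66 and Kif3c to Kif3b by -0.60. For each of these 5 ratios all 4 knockout libraries were lower than all 3 controls. The exact permutation p was then 0.0286, the smallest possible with 4 against 3 libraries, and 0.0343 after adjustment over the 6 ratios. The first gene of each of the 5 ratios was already called lower above. These p-values therefore add no independent evidence to those calls. The Kif3c to Kif3b difference was -0.40 without control replicate 2, whose log2 ratio was 1.203 against 0.64 and 0.54 in the other controls. Kif1a to Kif1b, both of which fell, differed by -0.07 with overlapping groups (exact permutation p = 0.286, adjusted 0.286).

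**Figure D4:**
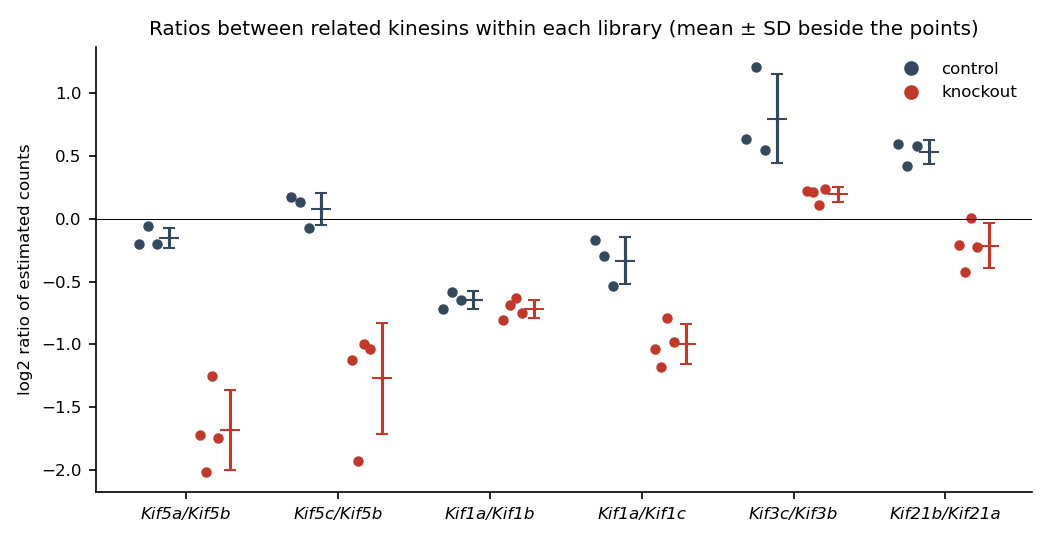
Log2 ratio of estimated counts (vertical axis) between 2 related kinesin genes in the same library, with the mean and SD beside the points, for 3 control and 4 knockout libraries. In 5 of the 6 ratios the knockout points lie below all control points, and for Kif1a to Kif1b they overlap.

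None of the mitotic kinesins tested passed the adjusted threshold with edgeR or DESeq2. Kif11, the bipolar motor that pushes spindle poles apart, was at 73.1, 59.5 and 59.9 CPM in the controls and at 76.1, 77.9, 61.5 and 69.9 CPM in the knockouts. The groups overlapped, with a log2 fold change of 0.15 ± 0.11 (SE; edgeR adjusted p = 0.457). Kif22, a motor on chromosome arms, was at 60.2, 63.5 and 57.4 CPM in the controls and at 66.7, 63.5, 61.1 and 82.5 CPM in the knockouts (0.18 ± 0.11 SE; edgeR adjusted p = 0.366). Kif23, which bundles microtubules of the central spindle for cytokinesis, was at 51.4, 48.5 and 46.7 CPM in the controls and at 48.9, 56.2, 49.1 and 54.8 CPM in the knockouts (0.10 ± 0.09 SE; edgeR adjusted p = 0.578). Kif2c, a depolymerase at centromeres, was at 38.1, 42.5 and 42.2 CPM and at 47.6, 44.2, 36.3 and 43.7 CPM respectively (0.07 ± 0.10 SE; edgeR adjusted p = 0.756). In each of these 4 genes the groups overlapped.

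The members with the smallest p among the mitotic genes all pointed upward. Kif2a, active in spindles too but counted with the other kinesins below, was at -0.16 ± 0.08 (SE) on the log2 scale. Kif18a, which dampens chromosome movements at the metaphase plate, was at 11.5, 11.99 and 12.6 CPM in the controls and at 15.3, 14.9, 16.03 and 13.8 CPM in the knockouts. Its groups did not overlap, but it did not pass (0.32 ± 0.12 SE; unadjusted p = 0.0230, edgeR adjusted p = 0.151). Kif20b, a motor of late mitosis and cytokinesis, was also above every control in each knockout library, at 35.6 to 37.2 against 29.1 to 33.2 CPM (0.22 ± 0.08 SE; edgeR adjusted p = 0.159). Kif15, a second spindle-pole motor, was at 34.5 to 43.3 against 31.1 to 35.8 CPM, with overlap (0.25 ± 0.10 SE; edgeR adjusted p = 0.161). Thus 2 of 11 mitotic members had knockout libraries all above the controls, where 9.27% of all tested genes did, and 3 of 11 had an unadjusted p below 0.05 with a higher value, where 9.39% did. The remaining members, the cytokinesis motors Kif20a and Kif14, the chromosome-bound Kif4 and the depolymerase Kif18b, were between -0.02 and 0.13 on the log2 scale. Over all 11 the 95% intervals lay between -0.30 and 0.59. Those of the 7 axonal members that fell lay between -1.72 and -0.29, so the ranges met at their edge. Kif20a overlaps Cdc23, Kif4 overlaps Pdzd11 and Kif18a overlaps Mettl15 on opposite strands, and those neighbours did not pass either (edgeR adjusted p between 0.392 and 0.740). Cdc23 had a mean of 2197.7 counts against 592.4 for Kif20a, and Pdzd11 had 881.5 against 554.9 for Kif4. Mettl15 had 103.6 against 245.0 for Kif18a. Whether reads were counted by strand is not known, so values of these members may include reads of their neighbours.

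Among the 15 other kinesins 14 were tested, and 0 were called with edgeR or DESeq2. By edgeR 4.87% of all tested genes were called lower and 1.94% higher. At an unadjusted edgeR p below 0.05 there were 1 higher and 0 lower of these 14, against 9.39% and 11.8% of all genes. The 1 higher gene was Kif9, a kinesin of motile cilia. It was at 3.66, 3.22 and 1.801 CPM in the controls and 4.47, 4.33, 3.76 and 6.06 CPM in the knockouts. Its knockout libraries were all above the controls, where 9.27% of all tested genes did so. In the larger batch alone its log2 fold change of 0.68 ± 0.27 (SE, edgeR adjusted p = 0.171) became 0.28 ± 0.25. Kif19a, a depolymerase that sets the length of cilia, was the most abundant kinesin of this set per length, at 22.03 ± 4.22 FPKM in the controls (SD, n = 3) and 27.97 ± 6.04 in the knockouts (SD, n = 4; log2 fold change 0.35 ± 0.18 SE, edgeR adjusted p = 0.314). Kif7, the kinesin at the tip of the primary cilium that regulates Hedgehog signalling, was at 37.0 ± 0.515 CPM in the controls (SD, n = 3) and 36.5 ± 2.46 in the knockouts (SD, n = 4). Its log2 fold change was -0.02 ± 0.09 (SE; 95% interval -0.21 to 0.17), and it overlaps Ticrr on the other strand. Kif2a, a depolymerase active in neurons and in spindles, was at 61.6 to 68.1 CPM in the knockouts and 68.4 to 77.7 CPM in the controls. Its groups did not overlap, where 11.5% of all tested genes were lower in this way, yet it did not pass (-0.16 ± 0.08 SE, edgeR adjusted p = 0.284). Kif2a overlaps Dimt1 on the other strand, so its values may include reads of that gene. Dimt1 had a mean of 456.8 counts against 1229.1 for Kif2a and a log2 fold change of 0.33 ± 0.16 (SE). The endosomal motors Kif13a, Kif13b and Kif16b were at -0.12, 0.01 and 0.20, and the non-motile Kif26a and Kif26b at -0.14 and -0.11. Kif24, Kif27, Kif17, Kif6 and Kif28 had control means of at most 7.31 CPM and log2 fold changes between -0.27 and 0.36. Of these, Kif17 and Kif28 overlap genes with more counts on the same strand, so reads of the pair may be mixed.

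Several partners of the axonal motors were lower too. Of 21 light chains, cargo adaptors and regulators, 9 were lower and 0 higher (median -0.21 on the log2 scale). Among all tested genes 4.87% were called lower and 1.94% higher. In the larger batch alone 4 of the 21 were lower, where 2.49% of all genes were. Without control replicate 1 it was 3 of the 21. The lists were chosen with earlier results of these data known. The largest differences were in Sybu, which links syntaxin vesicles to kinesin-1 (5.57 ± 0.900 to 1.71 ± 0.748 CPM; -1.71 ± 0.34 SE), and in Mapk8ip2 (-0.84 ± 0.13), a scaffold of kinesin-1 cargo. Klc1, a kinesin-1 light chain enriched in neurons, fell from 277 ± 24.8 to 164 ± 10.2 CPM (-0.76 ± 0.09 SE; edgeR adjusted p = 0.000929). Mapk8ip1, another scaffold, fell by 0.63 on the log2 scale and Kifap3, the partner of the Kif3 motors, by 0.40. Arl8a, Fez1, Kidins220 and the Kif1 adaptor Madd were at -0.43 to -0.45 and were also called. Of 26 subunits and regulators of cytoplasmic dynein, the motor that runs back towards the cell body, 3 were lower and 0 higher, with a median of -0.16: Dync1li1 (-0.36 ± 0.09 SE), Actr1a (-0.32 ± 0.08) and Dctn1 (-0.32 ± 0.08). None of these 3 was called in the larger batch alone, under the replicate block, or without control replicate 1 or 3 or knockout replicate 2, 3 or 4.

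Of 20 other mitotic spindle genes, 0 were called by edgeR and 0 by DESeq2, and the median was 0.11. The unadjusted edgeR p was below 0.05 for 1 higher and 0 lower genes. At that level 9.39% of all tested genes were higher and 11.8% lower. Of 15 markers of proliferating cells 0 were called by edgeR or DESeq2; the unadjusted p was below 0.05 for 2 higher and 0 lower genes, and the median was 0.06. Their summed level was 1544 to 1611 CPM in the controls and 1533 to 1723 CPM in the knockouts.

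Markers of neurons fell in the same libraries as the axonal kinesins. Beside the lists that follow, 4.87% of all tested genes were called lower and 1.94% higher (2.49% and 1.25% in the larger batch alone). Of 24 neuron markers 16 were lower and 0 higher (median -1.40 on the log2 scale), and none was at 0 in any library; in the larger batch alone 9 were lower (median -1.26). Their summed level was 3450.0, 3098 and 3468 CPM in control replicates 1 to 3 and 1611, 1182, 1691 and 1331 CPM in knockout replicates 1 to 4. The 4 with the largest fold changes were the filament genes Nefm (-2.03 ± 0.25 SE), Nefl (-1.90 ± 0.18) and Ina (-1.77 ± 0.31) and the sensory neuron factor Pou4f1 (-1.77 ± 0.33); the other called ones lay between -1.74 and -0.50. Of 13 markers of Schwann and satellite glia 4 were lower, Foxd3, Cdh19, Egr2 and Mbp, and 0 higher; in the larger batch alone 1 was lower (median -0.34 pooled and -0.36 in the larger batch; summed 1236 to 1335 CPM in the controls and 752 to 945 CPM in the knockouts). The part of neurons and glia in the fall of the axonal kinesins was not tested, and in whole tissue fewer cells of a type and less RNA per cell cannot be told apart. Of 10 hair cell markers 3 were higher, Gfi1, Espn and Ccer2, and 0 lower (median 0.49); in the larger batch alone 1 was higher (median 0.31). Of 15 epithelial markers 3 were higher, Cdh1, Grhl2 and Esrp1, and 2 lower, Fgf10 and Sox2 (median 0.18); in the larger batch alone 2 were higher and 1 lower (median 0.0151).

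**Figure D5:**
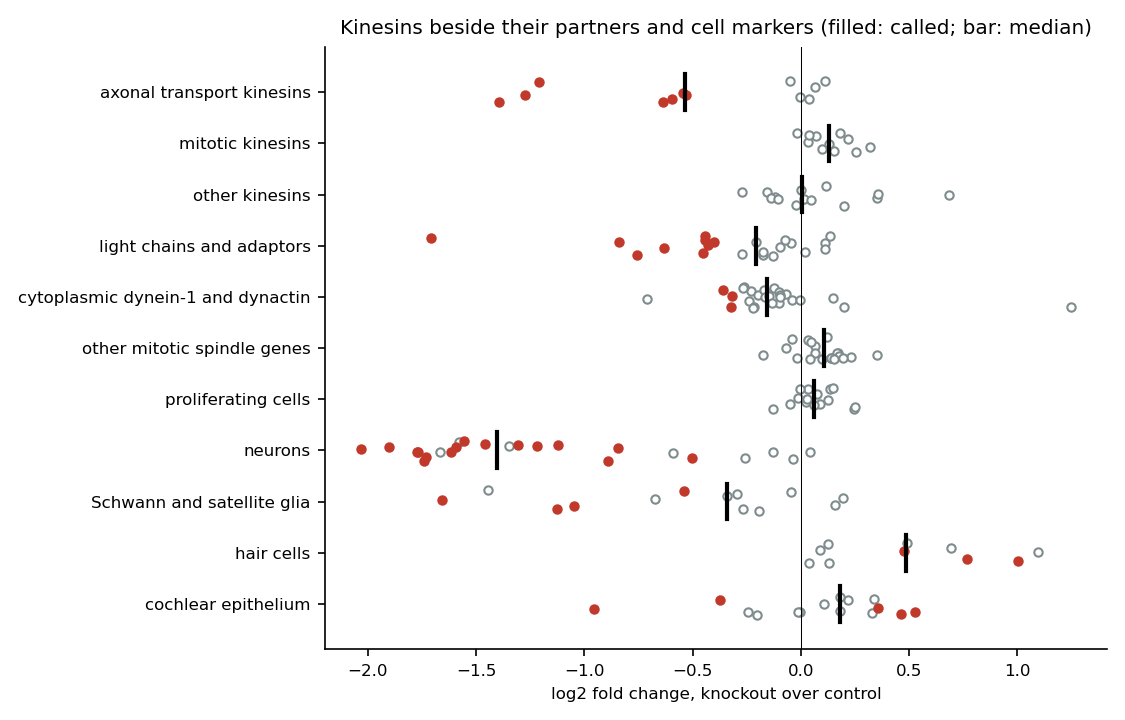
Log2 fold change of knockout over control (horizontal axis) for each tested gene of 11 lists; filled points passed the adjusted threshold, black bars are list medians, and vertical scatter only separates points. The medians are -0.54 for axonal kinesins, 0.13 for mitotic kinesins, 0.11 for other mitotic spindle genes and -1.40 for neuron markers.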

How the data were processed

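RNA-seq libraries of 4 Brg1 knockout and 3 control samples were compared; groups and replicate numbers came from the sample titles. Per the submitters' processing notes, the build was mm10 and the tools included HISAT2 2.0.5 and featureCounts 1.5.0-p3, besides CASAVA 1.8, fastp and DESeq2 1.20.0; settings were not given in the sources used here. As deposited, the count table has estimated counts that are not whole: in 16580 of 16580 informative genes 1 fraction was shared by 5 libraries and another by the remaining 2, and no label records the step behind this. These values were rounded to whole numbers, and the test planned for raw counts was kept. The deposited FPKM values, per the file headers scaled to gene length, were used for levels between genes and shares. Control replicate 3 is numbered 4 in the tables.

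The main test was that of edgeR 4.0.16 under R 4.3.3 (robust quasi-likelihood fit of the groups alone, TMM, filterByExpr, Benjamini-Hochberg adjustment over 17341 genes, threshold 0.05; biological coefficient of variation 14.9%, 5 residual degrees of freedom). If the values had been adjusted by batch before deposit, these degrees of freedom do not allow for it, and p-values may be too small. Standard errors were derived from the F statistic; CPM were TMM-scaled. The code was checked on simulated counts. Alternatives were DESeq2 1.42.0, RLE size factors, no filter, the larger batch alone, batch as a covariate, replicate blocks and leaving out each library. Log2 ratios used counts + 0.5 (alternatives: counts + 5, FPKM + 0.01).

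Named were all members, with per-library values for tested axonal members, the 4 mitotic members with the highest mean CPM and any called member; Kif18a and Kif9 were added after their values were seen. Of the other lists, called members could be named, the 4 with the largest fold changes first. The members and lists were chosen with earlier results of these data known. Promoter letters searched on both strands, after the kinesin results were seen, were those of the CHR (TTTGAA) and its variant (TTCGAA), the CCAAT box, the GC box (GGGCGG), the TATA box (TATAAA), E2F (TTCCCGCC) with a short form (TTTNNCGC), the left (TTCAGCACC) and right (GGACAG) parts of RE1, the E-box (CACGTG), NRF1 and the CRE (TGACGTCA), 12 in all; overlaps between patterns were not removed.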

Additional observations from a re-analysis of the deposited data

Results flagged for a closer look

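Among the knockout libraries, 2 of 55 measures (CPM of the tested kinesins, log2 ratios and summed levels of the lists) had a library far from the other 3, where chance flags about 1 in 20. The log2 ratio of Kif5c to Kif5b was -1.925 in knockout replicate 2 and between -1.13 and -0.99 in the others; all 4 lay below the controls. The summed level of the mitotic kinesins was 383 CPM in knockout replicate 3 and between 434 and 445 CPM in the others, and 372.5 to 398 CPM in the controls.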

How the results depend on the processing

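The 7 axonal members called lower stayed below 0 under every alternative run. All 7 stayed called with DESeq2, RLE size factors, no filter, batch as a covariate and both replicate blocks. Of these, 5 stayed called in the larger batch alone, and 5 to 7 when 1 library was left out. In values that may already have been adjusted by batch, the batch covariate cannot decide whether a batch effect played a part. No mitotic member was called under any alternative run. The axonal median lay between -0.61 and -0.44 and the mitotic median between 0.0603 and 0.185 when 1 library was left out, and the difference of medians between -0.75 and -0.54. Without Kif1bp the axonal median was -0.54. Partners called lower numbered 4 in the larger batch alone and 3 to 9 without 1 library. Dynein genes called lower numbered 0 in the larger batch and with either replicate block, 1 with batch as a covariate, and 0 to 4 without 1 library. Over all genes, 518 were higher with DESeq2, 219 (and 438 lower) in the larger batch, 207 with batch as a covariate, 180 with the replicate block, and 74 (536 lower) with the block by description number; without 1 library 106 to 348 were higher and 450 to 847 lower. The cause of these moves was not tested, apart from the smaller number of libraries where some were left out.

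Some members that were not called changed sign; Kif28 moved furthest, from 0.36 to -0.19 in the larger batch. In the larger batch these were Kif3b (0.0534), Kif14 (-0.0369), Kif26a (0.13), Kif26b (0.10), Kif27 (-0.0466), Kif17 (-0.12), Kif6 (-0.0926) and Kif28 (-0.19). With the replicate block they were Kif3b (0.0328) and Kif26a (0.0363), and with the block by description number Kif3a (0.0239), Kif18b (0.0557) and Kif7 (0.0046). Kif6 was at -0.0085 with DESeq2, -0.0022 with RLE factors, -0.0056 with no filter and -0.0044 with batch as a covariate. Without 1 library the ranges that crossed 0 were -0.0664 to 0.0593 for Kif3a, -0.0232 to 0.0846 for Kif1bp, -0.22 to 0.0709 for Kif3b, -0.0591 to 0.0706 for Kif4, -0.0846 to 0.0772 for Kif18b, -0.0419 to 0.14 for Kif14, -0.0675 to 0.0067 for Kif7, -0.0129 to 0.0630 for Kif13b, -0.32 to 0.0153 for Kif26a, -0.18 to 0.40 for Kif17 and -0.17 to 0.28 for Kif6.

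Same-numbered libraries did not deviate together (correlations of -0.08, -0.15 and 0.05 for replicates 1, 2 and 3). By the numbers in the tables, control replicate 3 and knockout replicate 4 share number 4. They form the smaller batch, and their correlation was -0.48. In values that may have been adjusted by batch, these correlations cannot decide whether samples were paired. Neither block changed an axonal call. The ratio tests were given as values only where libraries were left out, since no smaller set of these libraries can reach the threshold. Depth limits Kif12, Kif28, Kif6 and Kif2b most.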
